A study of Mus musculus with 4 samples.

Results

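Klhl35, Btg2 and Gadd45g were followed from dividing progenitor to young neuron in the E15.5 mouse cerebellum. They are 3 of the 32285 mouse genes in the 4 count matrices, and were chosen by the higher levels of Klhl35 and Btg2 in mutant than in control interneuron-like cells of these same libraries, with Gadd45g set beside them. That genotype contrast in interneuron-like cells is therefore described and not tested. The libraries were made from tdT+ cells, sorted by flow cytometry from dissociated cerebella of embryos at E15.5 and run on the 10x Genomics 3' platform. Both groups carried Ptf1aCre/+ and R26LSL-tdT/+, so that Cre made under Ptf1a switched on a red fluorescent reporter in the cells and their descendants. The 2 control libraries had no other allele. The 2 En1/2 CKO libraries, called mutant here, also carried En1lox/lox and En2lox/lox, which limits loss of both Engrailed genes to cells that had made Cre and to their descendants. Embryos were pooled within each library, so the spread between the 2 libraries of a group is that between pools.

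Ptf1a is a basic helix-loop-helix factor that commits progenitors of the cerebellar ventricular zone to GABAergic fates, which are Purkinje cells and inhibitory interneurons. As such a progenitor leaves the cell cycle, proneural factors and Notch ligands are switched on for a short time before neuronal genes follow. Btg2, also known as Tis21, encodes an antiproliferative protein of the BTG/TOB family and a p53 target, and in the mouse embryonic brain it marks progenitors that divide to give neurons. Gadd45g belongs to a family of small proteins induced by growth arrest and DNA damage, and it is known as a short-lived marker of cells entering neurogenesis in vertebrate embryos. Klhl35 is one of the kelch-like proteins, a family whose members commonly present substrates to cullin-3 ubiquitin ligases. En1 and En2 are homeobox factors needed for growth and patterning of the cerebellum.

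The 3 genes lie on different chromosomes, and the 250 bases before each annotated start are shown because the genes shared part of their course along the lineage. Klhl35 (ENSMUSG00000035298) spans bases 99466004 to 99474022 of chromosome 7 on the plus strand, Btg2 (ENSMUSG00000020423) bases 134075170 to 134079120 of chromosome 1 on the minus strand, and Gadd45g (ENSMUSG00000021453) bases 51846678 to 51848468 of chromosome 13 on the plus strand. The promoter sequences are those of RefSeq on GRCm38.p6, written 5' to 3' on the strand of the gene, with capitals for the E-box letters CANNTG and for the full cyclic AMP response element TGACGTCA.
Klhl35, chr7:99465754-99466003, plus strand: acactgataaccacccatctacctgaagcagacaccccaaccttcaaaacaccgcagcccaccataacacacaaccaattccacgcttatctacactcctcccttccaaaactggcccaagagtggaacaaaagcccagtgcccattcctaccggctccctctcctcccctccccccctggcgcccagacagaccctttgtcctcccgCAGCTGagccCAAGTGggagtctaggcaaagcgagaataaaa
Btg2, chr1:134079156-134079405, minus strand: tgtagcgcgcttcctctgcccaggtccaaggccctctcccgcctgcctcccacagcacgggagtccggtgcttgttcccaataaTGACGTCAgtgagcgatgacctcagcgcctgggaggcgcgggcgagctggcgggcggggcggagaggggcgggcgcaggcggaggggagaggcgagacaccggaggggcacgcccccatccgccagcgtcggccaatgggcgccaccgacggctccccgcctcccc
Gadd45g, chr13:51846425-51846674, plus strand: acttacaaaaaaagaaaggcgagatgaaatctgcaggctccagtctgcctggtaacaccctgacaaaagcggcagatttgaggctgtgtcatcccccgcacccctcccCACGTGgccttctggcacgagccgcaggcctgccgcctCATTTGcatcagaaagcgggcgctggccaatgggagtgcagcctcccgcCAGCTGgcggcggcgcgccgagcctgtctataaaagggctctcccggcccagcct
Both strands were searched, and these palindromes read alike on each. Klhl35 held 2 E-box matches, 42 and 32 bases before the end of the window, the first of them CAGCTG. Gadd45g held 3, at 142, 104 and 55 bases, the last of them CAGCTG. Btg2 held none, and had 1 TGACGTCA match at 166 bases. Of 32851 mouse promoters with the same window, 66.2% held CANNTG, 13% held CAGCTG and 1.55% held TGACGTCA. CCAAT occurred once before Klhl35, in 2 places before Btg2 and once before Gadd45g, against 33.8% of promoters with a match. No p53 half-site lay in any of the 3 windows, against 7.13% of promoters. The GC content of the windows was 55.6% for Klhl35, 73.2% for Btg2 and 62.0% for Gadd45g, beside a median of 52.4% over all promoters. These matches describe letters in a window and say nothing of binding.

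The libraries differed in quality, and values are given below in the order control 1, control 2, mutant 1, mutant 2. The matrices held 10991, 4619, 8190 and 11513 barcodes with 15470932, 5305154, 20724086 and 21021428 unique molecular identifiers (UMIs), of which 9948, 1171, 4893 and 7300 cells were kept after filters on genes, mitochondrial share and doublets. Control 2 stood apart by a median mitochondrial share of 13.4% over all barcodes, against 3.15% to 5.88% in the others. Control 1 stood apart by its nuclear RNA Malat1 at 85039 CPM (the count of a gene per 1000000 UMIs summed over the cells), against 31391 to 33649 in the others. Any pair of libraries shared 10 to 32 barcodes as deposited and 1 to 21 among kept cells. En2 was at 128, 106, 38.0 and 23.1 CPM in interneuron-like cells, lower in both mutant libraries, whereas En1 was at 133, 261, 131 and 138 CPM and overlapped. Which exons the lox sites flank is not given in the sources used here, and 3' tags outside the deleted part do not check the genotype. The cells formed 20 clusters, and the 3 genes were kept out of the genes used for clustering, although genes that vary with them were not.

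All 3 genes were low in radial and higher in intermediate progenitor-like cells, which carry Ptf1a, Neurog1 and Neurog2 in most of their clusters. They then parted. Gadd45g and Btg2 were lower again in interneuron-like cells, whereas the level of Klhl35 there overlapped that of the intermediate cells. In Purkinje-like cells all 3 were lower than in both of these classes. The radial class was made of clusters 3 and 10. Cluster 3, led by Gdf10, held 2291 cells and had 7 of 14 radial markers raised. Cluster 10, with Sox9 and Hes5 among its leading genes, held 867 cells and had 13 of 14 raised. When the 3 genes were allowed among the variable genes, a Gdf10-led cluster of 2750 cells was named astroglia. The radial name of cluster 3 thus depended in part on the clustering. The intermediate class was made of clusters 1, 5 and 13. For Klhl35 the higher level came from clusters 1 and 13. It was at 442, 440, 769 and 842 CPM in cluster 1, where 6 of 12 intermediate markers were raised. In cluster 5, where 12 of 12 were raised, it was only at 103, 58.2, 93.4 and 117 CPM. Cluster 13 was led mostly by cell cycle genes such as Rrm2, Pclaf and Hmgb2, with 3 of 12 intermediate markers raised, and it held 3.99%, 32.3%, 9.98% and 12.6% of the class.

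Klhl35 was at 56.7, 5.80, 15.02 and 52.7 CPM in radial progenitor-like cells, counted over all cells of the class in a library. In intermediate progenitor-like cells it was at 317, 196, 378 and 495 CPM, so that every library of the second class lay above every library of the first. In interneuron-like cells it was at 228, 141, 457 and 534 CPM, a range that takes in that of the intermediate cells. In Purkinje-like cells it returned to 70.7, 40.9, 61.0 and 46.6 CPM.

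Btg2 was at 67.9, 29.0, 69.4 and 78.3 CPM in radial progenitor-like cells and at 209, 91.2, 447 and 426 CPM in intermediate progenitor-like cells. Interneuron-like cells held 76.5, 44.5, 179 and 177 CPM. In each library the intermediate cells were the highest of the 4 classes. Purkinje-like cells held 35.7, 0, 31.7 and 31.5 CPM, where the count of 0 in control 2 came from 25 cells and allows up to 40.9 CPM at 3 counts.

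Gadd45g was at 167, 92.9, 75.9 and 70.4 CPM in radial progenitor-like cells. Its level in intermediate progenitor-like cells, 936, 959, 1027 and 877 CPM, varied little between libraries. It was at 344, 242, 240 and 238 CPM in interneuron-like cells and at 230, 81.7, 115 and 103 CPM in Purkinje-like cells. The intermediate cells of every library lay above all libraries of the other 3 classes.

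**Figure D1:**
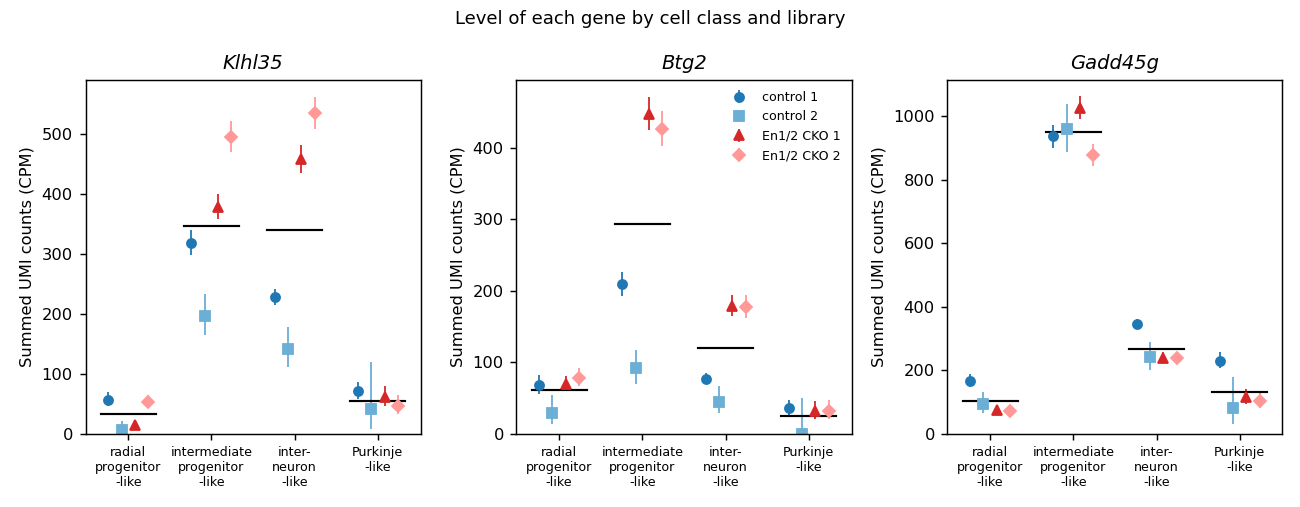
Level of Klhl35, Btg2 and Gadd45g (CPM of summed UMI counts, linear axis from 0) in 4 cell classes; each point is 1 library with an exact 95% Poisson interval for counting error only, and each black line is the mean of the 4 libraries. Gadd45g peaks in intermediate progenitor-like cells at 877 to 1027 CPM in all libraries, while Klhl35 stays high in interneuron-like cells.

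The classes were compared within libraries by edgeR's quasi-likelihood test on summed counts, with the library as a block and Benjamini-Hochberg adjustment over all genes tested. Against radial progenitor-like cells, all 3 genes were higher in intermediate progenitor-like cells, where 22.2% of 10986 genes were called higher. The log2 fold change was 3.43 (SE 0.26, adjusted p = 2.70e-07) for Klhl35, 2.27 (SE 0.16, adjusted p = 1.61e-07) for Btg2 and 3.32 (SE 0.18, adjusted p = 1.71e-08) for Gadd45g. The step from intermediate to interneuron-like cells separated them. Btg2 was higher in the intermediate cells by 1.29 on the log2 scale (SE 0.08, edgeR adjusted p = 1.37e-09) and Gadd45g by 1.80 (SE 0.09, edgeR adjusted p = 9.64e-11), so that 2 of the 3 were called where 22% of 10979 genes were. Klhl35 differed by 0.05 (SE 0.11, edgeR adjusted p = 0.774). Without cluster 13, an alternative added after the values were seen, Btg2 and Gadd45g were still called, at 1.43 and 2.00, and Klhl35 differed by 0.09. The comparison of Klhl35 turned with the processing: it was lower in the intermediate cells and called under the stricter cell filter (-0.26), with doublets kept (-0.24) and with finer clusters (-0.58).

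All 3 genes were lower in Purkinje-like than in intermediate progenitor-like cells. The intermediate cells were higher by 2.62 (SE 0.19) for Klhl35, 3.29 (SE 0.22) for Btg2 and 2.76 (SE 0.20) for Gadd45g, with edgeR adjusted p of 1.37e-09, 4.41e-10 and 1.14e-09, where 20.5% of 9640 genes were called higher. Interneuron-like cells in turn were higher than Purkinje-like cells for all 3, where 14.4% of 9357 genes were called higher. This comparison was added after the values were seen. The log2 fold change was 2.65 (SE 0.20, edgeR adjusted p = 7.06e-11) for Klhl35, 2.04 (SE 0.21, edgeR adjusted p = 1.30e-08) for Btg2 and 1.01 (SE 0.13, edgeR adjusted p = 1.28e-06) for Gadd45g. The Purkinje-like class of control 2 held 25 cells, so its values there are the least certain.

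Another axis ordered the cells without using their clusters, which served only to keep radial, intermediate, interneuron-like, Purkinje-like, cycling and unnamed clusters and to leave the other classes out. Each cell received an index, the share of neuron-list UMIs (such as Tubb3, Stmn2 and Dcx) among its UMIs of a neuron and a progenitor list (such as Sox2, Vim and Hes5), and cells were split into 5 bins of width 0.2 from progenitor to neuron. The lists hold none of the 3 genes. Bins cut a continuous score, and 213 to 1022 cells per bin lay within 0.02 of a cut. The bins also differed in class mix and depth. Intermediate cells made up 11.6%, 26.25%, 56.9%, 38.8% and 16.0% of bins 1 to 5, and Purkinje-like cells 19.8% of bin 5. The median depth was 3390, 1103, 980.5, 1104 and 1417.5 UMIs. The part of class mix and depth in the courses below was not tested.

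Gadd45g was highest in bin 3 in 3 libraries and in bin 2 in control 2. It was at 256, 299, 198 and 190 CPM in bin 1, the progenitor end, and at 433, 1588, 1308 and 784 CPM in bin 2. In bin 3 it was at 758, 928, 1415 and 801 CPM. It then came down to 528, 567, 640 and 484 CPM in bin 4 and to 367, 219, 272 and 260 CPM in bin 5, the neuron end.

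Btg2 had its highest level in the same bin as Gadd45g in each of the 4 libraries. From 73.3, 34.2, 111 and 108 CPM in bin 1 it went to 113, 162, 414 and 273 CPM in bin 2 and to 176, 98.6, 529 and 351 CPM in bin 3. Bin 4 held 119, 56.7, 337 and 287 CPM and bin 5 79.2, 49.9, 189 and 198 CPM. Control 2, the library with its peak in bin 2, had 49 cells there and 52 in bin 3.

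Klhl35 had the latest peak. It was at 41.0, 6.34, 8.46 and 19.99 CPM in bin 1, 58.1, 46.4, 48.0 and 112 CPM in bin 2 and 167, 131, 167 and 318 CPM in bin 3. In bin 4 it reached 268, 258, 451 and 482 CPM, and in bin 5 it held 212, 138, 441 and 521 CPM. Its highest bin was bin 4 in 3 libraries and bin 5 in mutant 2.

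**Figure D2:**
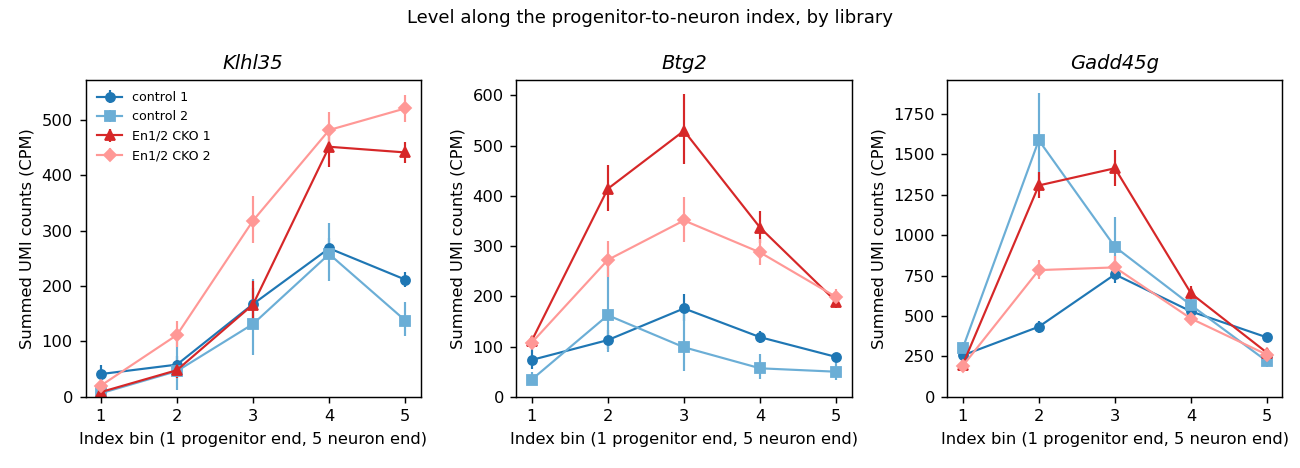
Level (CPM of summed UMI counts, linear axis from 0) of each gene in 5 bins of the progenitor-to-neuron index, with 1 line per library and exact 95% Poisson intervals for counting error. Gadd45g and Btg2 are highest in bin 2 or 3, and Klhl35 in bin 4 or 5.

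The middle bins were set against both end bins in one edgeR fit with the library as a block, where 17.9% of 10144 genes were called higher in the middle. All 3 genes were higher there, by 1.28 (SE 0.18, edgeR adjusted p = 2.57e-06) for Klhl35, 1.15 (SE 0.10, edgeR adjusted p = 1.55e-10) for Btg2 and 1.58 (SE 0.14, edgeR adjusted p = 4.56e-10) for Gadd45g. For Klhl35 this contrast reflects the low bin 1. From bin 1 to bin 2 all 3 genes rose, by 2.21 (SE 0.34) for Klhl35, 1.45 (SE 0.16) for Btg2 and 1.99 (SE 0.22) for Gadd45g, where 27.9% of genes were called in either direction. Klhl35 in bin 2 was still only at 58.1, 46.4, 48.0 and 112 CPM. That was below its 151, 89.1, 113 and 260 CPM in erythroid-like cells of the same libraries. From bin 2 to bin 3, of the 3 genes, Klhl35 passed the test, with a rise of 1.61 (SE 0.28, edgeR adjusted p = 0.00014), where 15.2% of genes were called. Btg2 differed by 0.40 (edgeR adjusted p = 0.0727) and Gadd45g by 0.10 (edgeR adjusted p = 0.830).

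From bin 3 to bin 4 the courses crossed. Klhl35 rose by 0.96 (SE 0.23, edgeR adjusted p = 0.00556), while Btg2 fell by 0.49 (SE 0.14, edgeR adjusted p = 0.0257) and Gadd45g fell by 0.75 (SE 0.20, edgeR adjusted p = 0.0165), where 9.77% of genes were called. From bin 4 to bin 5 Btg2 fell by 0.55 (SE 0.13, edgeR adjusted p = 0.00728) and Gadd45g fell by 0.88 (SE 0.20, edgeR adjusted p = 0.00441), where 9.99% of genes were called. Klhl35 differed by -0.13 (SE 0.20, edgeR adjusted p = 0.751) over all libraries. It was lower in bin 5 than in bin 4 in both controls and in mutant 1, and higher in mutant 2. Its decline in the controls alone was not tested. With DESeq2 the Klhl35 step from bin 3 to bin 4 was 1.01 and no longer called (adjusted p = 0.130). The falls between bins 3 and 4 were the least firm, with the call lost in 7 of 13 alternatives for Btg2 and in 6 of 13 for Gadd45g. Without mutant 1 the adjusted p of that step was 0.228 for Btg2 and 0.189 for Gadd45g, and without mutant 2 it was 0.0569 and 0.0992. Without control 1 it was 0.0830 for Btg2. From bin 4 to bin 5, it was 0.118 and 0.0538 without mutant 1 and 0.0725 and 0.0653 without mutant 2. The Btg2 step from bin 2 to bin 3 passed without control 2 (0.45, edgeR adjusted p = 0.0364).

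Among the clusters, Gadd45g was highest in cluster 5, with Ptf1a, Kirrel2 and Neurog2 among its leading genes, at 1437, 1964, 1494 and 1511 CPM. The intermediate cluster 1, led by Neurog1, Angpt1 and Ebf1, held 723, 654, 641 and 588 CPM. It lay further along the index, at a median of 0.75 against 0.417 in cluster 5. Cluster 5 was the higher in each of the 4 libraries. Btg2 also had its highest levels in cluster 5 (301, 141, 529 and 553 CPM), with 179, 104, 427 and 429 CPM in cluster 1.

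Klhl35 had the reverse order of these clusters. It was at 103, 58.2, 93.4 and 117 CPM in cluster 5 and at 442, 440, 769 and 842 CPM in cluster 1. With finer clusters, 1753 cells led by March1, Chgb, Igsf8 and Ebf1, genes that also led cluster 1, were left unnamed. The intermediate name of cluster 1 thus depended in part on the clustering. Within the interneuron-like cells Klhl35 was high in cluster 2, led by Robo3, a receptor of commissural axon guidance and migration, at 375, 166, 826 and 674 CPM. Cluster 9, which carries Pax2, Nhlh2 and Neurod6, held 368, 194, 537 and 648 CPM. Cluster 0, led by Igfbp5 and Sez6, held only 122, 13.6, 75.5 and 148 CPM. Cluster 0 was therefore below clusters 2 and 9 in each of the 4 libraries. Cluster 13 held 185, 165, 375 and 450 CPM. These cluster levels are descriptions without a test.

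**Figure D3:**
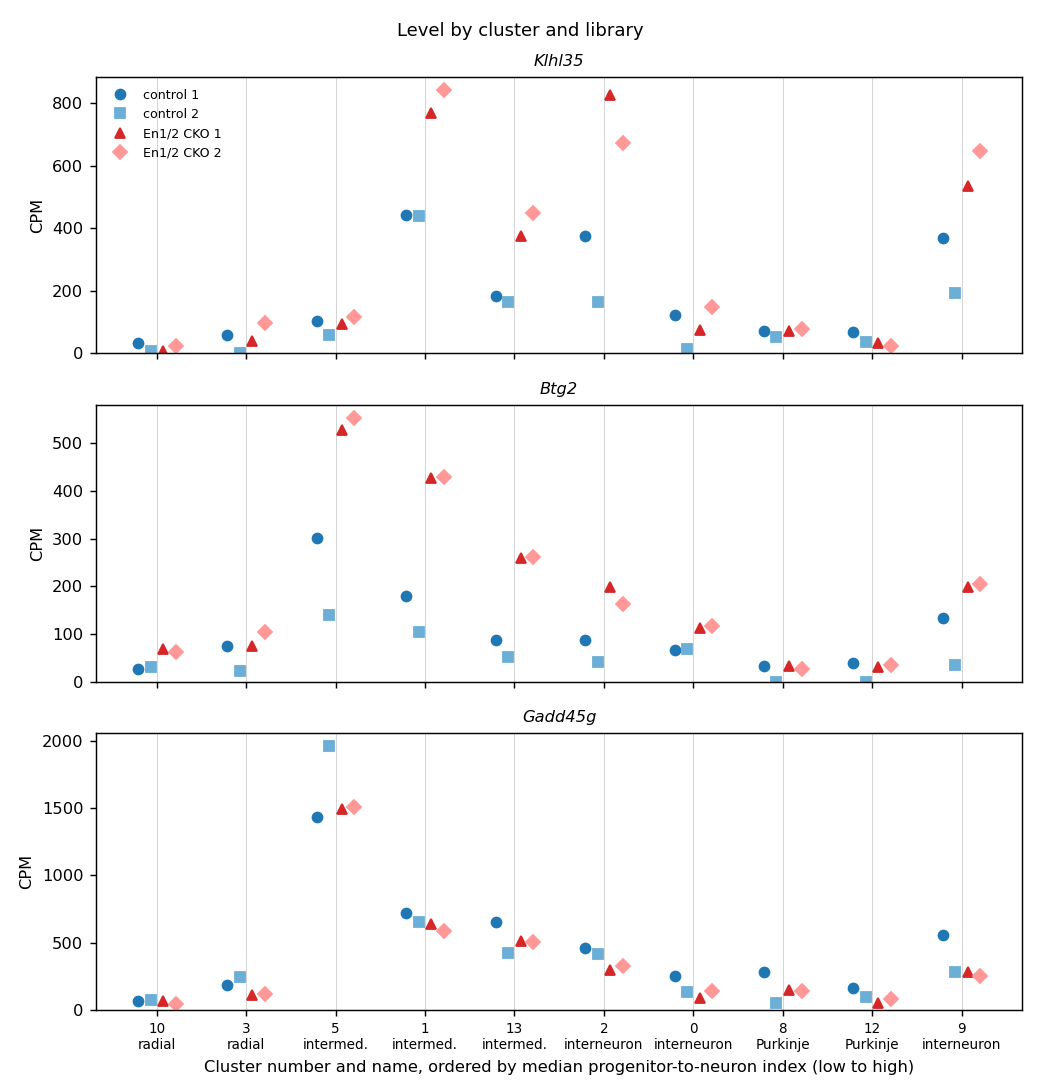
Level (CPM, linear axis from 0) of each gene in the 10 clusters of the progenitor-like, interneuron-like and Purkinje-like classes, ordered by median index, with 1 point per library. Gadd45g and Btg2 are highest in cluster 5, and Klhl35 in clusters 1, 2 and 9 with low values in clusters 5 and 0.

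Cells with at least 1000 UMIs were thinned to that number, and cells with fewer were left out. Klhl35 was then detected in 35.3%, 26.2%, 52.5% and 58.0% of thinned cells of cluster 1. In cluster 0 the share was 10.7%, 0%, 9.52% and 14.02%, where 0 of 58 cells allows a share of up to 5.17%. In microglia-like cells of cluster 14, which should lack the gene, the share was 2.44%, 0%, 0% and 2.96%, where 0 of 61 and 0 of 60 cells allow up to 4.92% and 5.00%. For Gadd45g the shares were 61.3%, 79.5%, 61.3% and 65.4% in cluster 5 and 9.76%, 4.92%, 3.33% and 6.67% in cluster 14. For Btg2 they were 26.6%, 10.2%, 37.9% and 43.5% in cluster 5 against 6.098%, 6.56%, 13.3% and 15.6% in cluster 14. The share of Btg2 in control 2 was thus close to its microglial share, and the microglial share was itself higher in both mutant libraries. Erythroid-like cells of cluster 6, led by haemoglobin genes, gave higher values. The share there was 13.6%, 13.3%, 5.26% and 19.6% for Klhl35 and 32.1%, 26.7%, 21.1% and 27.1% for Gadd45g. These shares rest on 81 of 371, 30 of 54, 19 of 35 and 317 of 1138 cells of cluster 6, so those of control 2 and mutant 1 are imprecise. The Klhl35 share in cluster 0 was not above that of cluster 6 in 3 of 4 libraries, so by cluster 6 it cannot be told from background. The share of Btg2 in cluster 6 was 4.94%, 0%, 10.5% and 13.6%. In microglia-like cluster 16, almost all of it from mutant 2, the shares in that library were 16% for Klhl35, 15.3% for Btg2 and 30% for Gadd45g. In CPM, cluster 6 held 151, 89.1, 113 and 260 for Klhl35, 70.4, 29.7, 113 and 125 for Btg2 and 488, 490, 432 and 345 for Gadd45g. Against these values all 3 genes were higher in the intermediate class in each library, Klhl35 and Btg2 were also higher in the interneuron-like class, and Gadd45g was lower there. Within the intermediate class, Klhl35 in cluster 5 was below cluster 6 in each library. All 3 were lower in radial progenitor-like and Purkinje-like cells than in cluster 6 of the same library. By cluster 6 these levels, and that of Gadd45g in interneuron-like cells, cannot be told from background. In cluster 14 Gadd45g was at 90.5, 51.1, 32.6 and 52.9 CPM, below its interneuron-like level in each library. In cluster 6, 1566 of 1598 cells held 10 or more UMIs of the index lists, against 228 of 347 in cluster 14. Which cluster measures background better was not tested.

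Median depths over all cells, before thinning, were 875, 1049, 1034 and 840.5 UMIs in cluster 6. In cluster 14 they were 3650, 3444, 4352 and 5604 UMIs and in the intermediate class 1084, 2305, 2980 and 1121 UMIs.

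The genes with the most similar patterns were found over the 12 clusters that held 20 or more cells of every library, among 6360 genes, as a description of clusters that share libraries. Klhl35 was most like Tcf15 (r = 0.977), Lhx1os (r = 0.966), Nhlh1 (r = 0.965), Lhx5 (r = 0.964) and Ebf1 (r = 0.962). Each of these 5 had its highest level in cluster 1. Over all 19 clusters of 50 cells or more, r was 0.874, 0.604, 0.946, 0.935 and 0.762 in the same order. Btg2 was most like Angpt1 (r = 0.913), Prdm13 (r = 0.907), Sv2b (r = 0.897), Stx6 (r = 0.885) and Neurog2 (r = 0.875), with r of 0.605 to 0.843 over the 19 clusters, the lowest for Stx6. Gadd45g was most like Neurog2 (r = 0.931), Angpt1 (r = 0.919), Dll3 (r = 0.899), Prdm13 (r = 0.893) and Sv2b (r = 0.888). Neurog2 is a proneural factor, Dll3 a Notch pathway ligand and Prdm13 a transcription factor of GABAergic fate. The lists of Btg2 and Gadd45g shared Angpt1, Prdm13, Sv2b and Neurog2, and r between those genes was 0.850, against 0.639 for Klhl35 with Btg2 and 0.653 for Klhl35 with Gadd45g.

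Cells of the intermediate class with at least 1000 UMIs were compared after thinning to that number, without a test because the counts are sparse. Gadd45g was detected in 58.5%, 70.0%, 57.7% and 49.8% of cells with a Btg2 UMI and in 46.8%, 53.1%, 45.7% and 45.4% of cells without one. The share was higher with Btg2 in each library of the class, but within cluster 1 in 2 of the 4 libraries and within cluster 5 in 3. Gadd45g was detected in 45.9%, 50%, 44.4% and 40.2% of cells with a Klhl35 UMI and in 50.3%, 55.2%, 51.7% and 50.9% of cells without one, lower with Klhl35 in each library. Within cluster 1 the order turned, at 45.6%, 43.8%, 41.2% and 37.9% with and 44.5%, 35.6%, 38.3% and 37.5% without, and in cluster 5 it was mixed, so the difference over the class did not hold within its clusters. Btg2 showed no common direction with Klhl35, at 17.4%, 9.38%, 29.1% and 34.7% with and 19.6%, 8.46%, 33.6% and 36.3% without. Without thinning, all cells of the class were taken in, and deeper cells detect more of everything. The mean difference in Gadd45g between cells with and without Klhl35 then turned to 2.91 percentage points in the other direction.

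Of 23 neurogenic transition genes tested besides Btg2 and Gadd45g, 21 were called higher and 1 lower in intermediate than in radial progenitor-like cells, with a median log2 fold change of 2.63 beside 0.01 over all genes, of which 22.2% were called higher and 24.4% lower. The same list had 21 of 23 called higher in the middle of the index, with a median of 1.21 beside 0.03. Igfbpl1 rose by 3.9 (SE 0.19), Nhlh2 by 2.89 (SE 0.29), Sox11 by 2.33 (SE 0.18) and Sox4 by 1.86 (SE 0.15) from radial to intermediate cells, all with edgeR adjusted p of 3.29e-06 or less. Against interneuron-like cells the intermediate cells had 13 of 23 called higher and 5 lower, where 22% of all genes were called higher and 19.1% lower. Nhlh2 was among the lower at -0.51 (SE 0.10). Igfbpl1 at -0.16, Sox11 at 0.13 and Sox4 at 0.02 did not pass this test, with edgeR adjusted p of 0.0897, 0.119 and 0.874, as Klhl35 did not. All 26 cell cycle genes were called higher in intermediate than in interneuron-like cells, with a median of 2.08 beside 0.02, and 24 of 26 were higher than in Purkinje-like cells. Ccnd2, a G1 cyclin, was higher in intermediate than in radial cells by 3.31 (SE 0.22).

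The relatives of the 3 genes varied in direction and size. In the BTG/TOB family, Btg1 was higher in intermediate than in radial cells by 0.42 (SE 0.10, edgeR adjusted p = 0.00451) and Btg3 by 0.57 (SE 0.17, edgeR adjusted p = 0.0133), both smaller than the 2.27 of Btg2. Tob1 differed by -0.06 (SE 0.12, edgeR adjusted p = 0.710). In the GADD45 family, Gadd45a was higher by 2.26 (SE 0.36, edgeR adjusted p = 0.000181) and Gadd45b lower by -3.20 (SE 0.26, edgeR adjusted p = 4.36e-07). Of 22 other kelch-like genes tested, 5 were called higher and 5 lower in intermediate than in radial cells, with a median of 0.07, shares close to the 22.2% and 24.4% over all genes. Klhl24 at 1.68 (SE 0.10) and Klhl7 at 0.72 (SE 0.12) were among the higher. Of 17 p53 targets besides Btg2, 6 were called higher and 4 lower, with a median of 0.07. Plk3, a stress-responsive kinase, rose by 2.55 (SE 0.22), Ei24 was lower by -0.73 (SE 0.10), and Bax, which promotes cell death, differed by -0.02 (SE 0.09, edgeR adjusted p = 0.893). Immediate early and dissociation stress genes had 5 of 11 called higher and 2 lower, with Ier2 at 0.90 (SE 0.10) and Jun at -1.78 (SE 0.12).

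In interneuron-like cells, the contrast that chose the genes, the control mean of Klhl35 was 184 ± 61.2 CPM (SD, n = 2) and the mutant mean 495 ± 54.3 CPM (SD, n = 2), a ratio of 2.69. Btg2 averaged 60.5 ± 22.6 and 178 ± 1.24 CPM (SD, n = 2 each), a ratio of 2.94. Gadd45g averaged 293 ± 72.4 and 239 ± 1.42 CPM (SD, n = 2 each), with both mutants just below both controls, as for 13.2% of genes. Both mutant libraries lay above both controls for Klhl35 and Btg2, as they did for 21.6% of 6715 genes with at least 20 CPM in these cells. The edgeR fit over 10917 genes called 0% of them, with 557 genes at an unadjusted p under 0.05. DESeq2 was also run as an alternative, and its calls over all genes are not given for this contrast. The edgeR log2 fold change was 1.38 for Klhl35, 1.46 for Btg2 and -0.33 for Gadd45g. These values describe the contrast that chose the genes and are no test of them.

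The make-up of the interneuron-like class differed between libraries, so the clusters are given apart. Cluster 9 held 79 of 3850 class cells in control 1, 137 of 230 in control 2, 486 of 1167 in mutant 1 and 380 of 1381 in mutant 2. Within cluster 9 the ratio of mutant to control mean was 2.11 for Klhl35 and 2.38 for Btg2. Within cluster 2 it was 2.77 for Klhl35 and 2.83 for Btg2, where control 2 had 19 cells. Within cluster 0 it was 1.65 for Klhl35, with mutant 1 below control 1, and 1.72 for Btg2, whose mutants remained above both controls. The libraries of the genotypes were apart for Klhl35 in the clusters where it was high and overlapped in cluster 0, where it was low. The share of all genes apart within a single cluster was not computed. Over the whole interneuron-like class, both mutants were above both controls for 21.6% of genes.

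Interneuron-like cells made up 47.6% of bin 4 and 61.2% of bin 5 of the index, so the genotypes were compared along it without them, a choice made after the values were seen. Both mutants then lay above both controls for Klhl35 in bins 4 and 5, as for 18.5% and 19.4% of genes, with ratios of mutant to control mean of 1.79 and 2.22, and the libraries overlapped in bins 1, 2 and 3. For Btg2 both mutants lay above both controls in all 5 bins, with ratios of 2.04, 2.39, 3.22, 3.25 and 3.18 from bin 1 to bin 5. In each single bin that held for 20.3%, 16.6%, 17.9%, 18.5% and 19.4% of genes. Gadd45g overlapped in every bin but bin 1, where both mutants were below both controls, as for 13.5% of genes. Intermediate cells kept in these bins are not shown to be separate from interneuron-like cells, as that border depended on the clustering.

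Progenitor-like cells, radial and intermediate summed, were not part of the choice under the main clustering, although they come from the same libraries. The border between intermediate cells and the interneuron-like cells that chose the genes depended on the clustering. Control 1 held 2258 intermediate and 3850 interneuron-like cells. With Klhl35, Btg2 and Gadd45g allowed among the variable genes, it held 1230 and 4762. The intermediate cells are therefore not shown to be separate from that choice. In intermediate progenitor-like cells the control mean of Btg2 was 150 ± 83.2 CPM and the mutant mean 437 ± 14.96 CPM (SD, n = 2 each), and Klhl35 257 ± 85.8 and 437 ± 82.8 CPM. Gadd45g averaged 948 ± 16.3 and 952 ± 106 CPM and did not separate. Both mutants lay above both controls for Klhl35 and Btg2 in these cells, as for 21.8% of 6903 genes, and for Btg2 in radial progenitor-like cells, as for 21.6% of 7204 genes, although mutant 1 and control 1 differed there by 69.4 against 67.9 CPM.

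The make-up of these classes also differed between libraries. Cluster 10 held 5.69%, 73.6%, 46.0% and 27.5% of the radial class, beside the shares of cluster 13 given above. The sum of the classes was made of 1124, 163, 908 and 963 radial and 2258, 269, 1032 and 1206 intermediate cells. Within cluster 1 the ratio of mutant to control mean was 1.83 for Klhl35 and 3.03 for Btg2, and within cluster 13 it was 2.36 and 3.76, with both mutants above both controls. Within cluster 5 it was 2.45 for Btg2, with the genotypes apart, and 1.30 for Klhl35, with overlap. In the radial clusters Btg2 was apart in cluster 10, at a ratio of 2.34, and overlapped in cluster 3, at 1.84, while Klhl35 overlapped in both. For these single clusters too, the share of all genes apart was not computed. Over the whole intermediate and radial classes, both mutants were above both controls for 21.8% and 21.6% of genes.

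No member passed the edgeR test between genotypes in progenitor-like cells, where 0% of 12224 genes did, 652 had an unadjusted p under 0.05 and DESeq2 called 6. The log2 fold change of mutant over control was 1.28 (SE 0.36, edgeR adjusted p = 0.855) for Btg2, 0.57 (SE 0.32, edgeR adjusted p = 0.855) for Klhl35 and -0.22 (SE 0.24, edgeR adjusted p = 0.889) for Gadd45g. The call for Btg2 depended on the libraries kept: without control 1 it was 1.92 (edgeR adjusted p = 0.000582) and without control 2 0.88 (edgeR adjusted p = 0.00310), each with 1 control left. The spread in these fits came from the 2 mutant libraries alone, and the lone control is assumed to vary like them. Klhl35 was called without control 1 (0.93, edgeR adjusted p = 0.0475). Over the alternatives the adjusted p of Btg2 ranged from 0.000582 to 1.00, and all put the mutants higher.

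In Purkinje-like cells none of the 3 genes passed the test between genotypes. The log2 fold change was -0.29 (SE 0.35) for Klhl35, -0.03 (SE 0.45) for Btg2 and -0.76 (SE 0.39) for Gadd45g, each with an edgeR adjusted p of 1.00, where 0.0223% of 8984 genes were called, which are Prph and Sncg, named after their values were seen. The call and the directions depended on the libraries kept. Gadd45g was -1.08 and called without control 2 (edgeR adjusted p = 0.000797) and 0.48 without control 1, and the sign of Btg2 turned in 8 of 14 alternatives. The 95% Poisson interval of Btg2 in control 2 reached 50.2 CPM, above the mutant levels of 31.7 and 31.5 CPM. The difference between the progenitor-like and the Purkinje-like genotype effects was itself tested, as an interaction added after the values were seen. It was 0.95 (SE 0.40, edgeR adjusted p = 0.389) for Btg2, 0.61 (SE 0.34, edgeR adjusted p = 0.665) for Klhl35 and 0.58 (SE 0.30, edgeR adjusted p = 0.622) for Gadd45g, where 0.794% of 10955 genes were called. The effects were not shown to differ between these classes.

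Btg2 was also higher in both mutant libraries in classes other than the GABAergic lineage. Its level was 62.5, 38.4, 157 and 174 CPM in astroglia-like cells, 55.7, 32.7, 110 and 117 CPM in granule lineage-like cells and 68.5, 48.3, 152 and 128 CPM in microglia or macrophage-like cells. The 2 mutants lay above the 2 controls in all 3 classes, as for 21.1% of 7086 genes in the first, 19% of 6774 in the second and 15.1% of 6323 in the last. The interneuron-like clusters, whose cells chose the genes, were left out of a count over the other 10 of the 12 clusters, which come from the same libraries. Both mutants were above both controls for Btg2 in 9 of them, and 0.692% of 7230 genes, 50 with Btg2 included, were separated in as many. Btg2 was chosen for its higher level in these mutant libraries, and the 7230 genes were not. The share therefore does not measure how unusual Btg2 is, and the clusters are not independent repeats. The border of the intermediate clusters with the interneuron-like ones also depended on the clustering. Klhl35 was separated in 2, as many as or fewer than 46.8% of genes, and Gadd45g in 1, as many as or fewer than 72%. Both mutants were below both controls for Gadd45g in 4, and 10.7% of genes had as many.

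**Figure D4:**
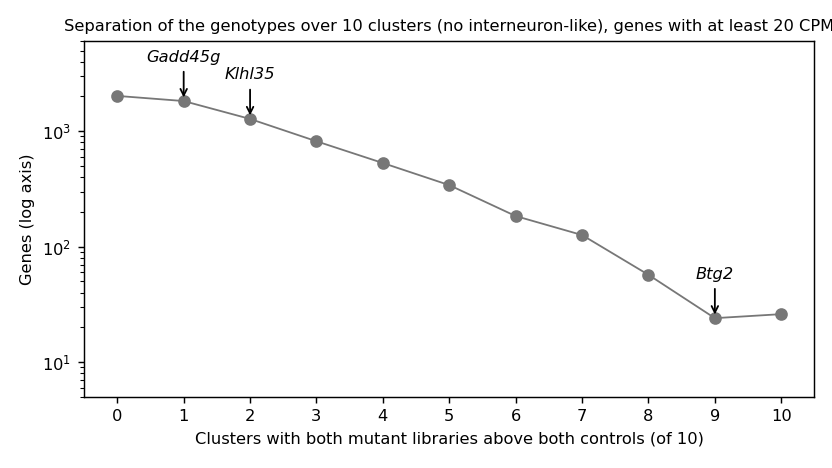
Number of genes with at least 20 CPM (log axis) by the number of clusters, of 10 with the interneuron-like ones left out, in which both mutant libraries lay above both control libraries. Arrows mark Gadd45g at 1 cluster, Klhl35 at 2 and Btg2 at 9, near the right end of the range. Klhl35 and Btg2 were chosen by their levels in the same libraries, unlike the other genes counted.

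Of those 50 genes, 18 encode ribosomal proteins of the Rpl and Rps series and 5 are translation factors of the Eef and Eif series. Summed over 79 such ribosomal protein genes, the share of UMIs in intermediate progenitor-like cells was 5.57%, 9.40%, 10.7% and 10.2%, lowest in control 1 and in both controls below both mutants. In interneuron-like cells the share was 4.48%, 8.02%, 8.16% and 7.8%. The share was again lowest in control 1, while control 2 lay between the 2 mutants. Malat1, high in control 1, was at 97757, 40196, 40193 and 42029 CPM in interneuron-like cells. Btg2 was lower in control 2, whose ribosomal share and Malat1 level were close to those of the mutants, than in control 1. The part of these library-wide shifts in the Btg2 difference was not tested.

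Btg2 lies on chromosome 1, as does En1 at bases 120602418 to 120607992, with 13.5 Mb between them. DNA linked to the En1lox allele and the mutation itself cannot be told apart here. Of the 50 genes separated as widely as Btg2, 4 (8%) were on chromosome 1, which holds 5.88% of all genes compared. Of the genes within 1 Mb of Btg2, in interneuron-like cells 6 of 14 tested had a positive log2 fold change, with a median of -0.12 (range -0.43 to 0.62). In progenitor-like cells 6 of 17 were positive with a median of -0.20, and in Purkinje-like cells 3 of 13 with a median of -0.07, and none was called in any of these fits.

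No gene of the lists, Klhl35, Btg2 and Gadd45g included, passed the edgeR test between genotypes in the main fits. In progenitor-like cells 0 genes of the 7 lists were called by edgeR. Of 20 p53 targets besides Btg2, the median log2 fold change was 0.03, and it was -0.05 over all genes. Immediate early and dissociation stress genes had a median of 0.22, with 10 of 13 positive. Neurogenic transition genes had a median of -0.28, kelch-like genes -0.11, cell cycle genes -0.42, the other BTG/TOB genes 0.10 and the other GADD45 genes 0.61. In interneuron-like cells the medians were 0.08 for p53 targets, 0.02 for immediate early genes, 0.04 for neurogenic transition genes, 0.04 for kelch-like genes, -0.68 for cell cycle genes and -0.03 for the other BTG/TOB genes, beside -0.04 over all genes.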

How the data were processed

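Values were UMI counts per gene and cell in 4 matrices deposited by the authors, made with Cell Ranger 6.1.0 on mm10, per the submitters' processing notes; the matrices are raw counts, per the file headers. Whether intronic reads were counted is not given in the sources used here. Barcodes below 500 genes or above 10% mitochondrial UMIs were dropped, Scrublet doublets were removed, and 2000 variable genes without the 3 genes described gave 30 components and Leiden clusters at resolution 1 (scanpy 1.11.5, leidenalg 0.10.2), named from marker lists. Where Scrublet's own threshold marked under 0.5% of cells, the cells with the highest scores were removed, at 0.8% per 1000 cells. Counts were summed per library and class, cluster or index bin; cells are not replicates. edgeR 4.0.16 (quasi-likelihood F test with TMM and filterByExpr, 2-sided, adjusted over all genes by Benjamini-Hochberg, called under 0.05) was the test, with the library as a block between classes and bins, and DESeq2 1.42.0 an alternative; scripts were tested on simulated data. CPM are counts per 1000000 UMIs of the summed cells, and intervals cover counting error at the 95% level. Coordinates of genes are those of GENCODE vM21.

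The genes, lists and tests were chosen with earlier results of these data known. Named genes are the 3 genes, En1, En2, the 5 genes most correlated with each over clusters (log2 of CPM plus 10), and up to 4 genes with the highest level from each of 7 lists (BTG/TOB, GADD45, p53 targets, kelch-like, neurogenic transition, immediate early and dissociation stress, cell cycle). Replicate numbers are shared by the groups in the labels. Same-numbered libraries deviated together with r of -0.187 in interneuron-like, -0.189 in progenitor-like and 0.0656 in Purkinje-like cells, so the numbers were not taken to pair them. Left-out libraries, other filters, scalings, clusterings and doublet rules were tried.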

Additional observations from a re-analysis of the deposited data

How the results depend on the processing

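The contrasts between classes and along the index kept their direction and their side of the threshold for Btg2 and Gadd45g in all alternatives against radial, interneuron-like and Purkinje-like cells and for the middle against the ends, and for Klhl35 in all of these but the one against interneuron-like cells. There the log2 fold change of Klhl35 was -0.26 under the stricter cell filter, -0.24 with doublets kept, -0.23 in deeper cells (2000 UMIs or more) and -0.58 with finer clusters, and leaving out 1 library gave -0.17 to 0.17. Between bins 2 and 3 Gadd45g was -0.030 with DESeq2, -0.060 under the stricter filter, -0.00063 with doublets kept and -0.19 in deeper cells, and leaving out 1 library gave -0.080 to 0.28. Klhl35 between the last 2 bins ranged over -0.27 to 0.0015 with 1 library left out. In every such case the cause was not tested. Calls in progenitor-like cells between genotypes were 59 with no low-count filter and 6 with DESeq2, beside 0, and 0 to 2043 with 1 library left out. The Btg2 fold change there was 1.31 and called with no filter and 0.88 to 1.92 with 1 library left out, Klhl35 was 0.28 to 0.93, and Gadd45g was 0.11 under the stricter filter and 0.028 in deeper cells, beside -0.22. With the replicate number crossed, 25 genes were called in progenitor-like cells, Btg2 among them at 1.37, and Btg2 in Purkinje-like cells was 0.26. In interneuron-like cells Btg2 was 1.25 to 1.92 with 1 library left out. In Purkinje-like cells calls between genotypes were 18 with no low-count filter, 11 under the stricter filter, 0 in deeper cells and 2 to 269 with 1 library left out. Klhl35 there was 0.43 under the stricter filter, 0.044 in deeper cells and -0.41 to 0.46 with 1 library left out. Btg2 there was 0.35 with DESeq2, 0.43 with doublets kept, 0.025 with the highest doublet scores removed and -0.18 to 7.19 with 1 library left out, where the highest value has the count of 0 in control 2 as its lone control and is no bound. Gadd45g there was -1.08 to 0.48, called without control 2. The replicate block gave 8 calls in Purkinje-like cells and 0.24 for Btg2 there, and changed no other call of the 3 genes. Calls between intermediate progenitor-like and Purkinje-like cells were 2513 under the stricter filter and 2558 in deeper cells, beside 4081. Between interneuron-like and Purkinje-like cells they were 1630 with DESeq2, 1292 under the stricter filter, 1306 in deeper cells and 1477 to 2837 with 1 library left out, beside 2562. Calls for the middle against the ends were 1360 under the stricter filter, 1680 in deeper cells and 1289 to 3230 with 1 library left out, beside 2927. Without thinning, the mean difference in detection was 19.6 percentage points for Gadd45g by Btg2, 5.84 for Btg2 by Klhl35 and 2.91 for Gadd45g by Klhl35. Leaving out the cycling cluster 13, an alternative added after the values were seen, changed no call of the 3 genes. Control 2 held the fewest cells, which limits the precision of every control mean.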
